A study of Mus musculus with 14 samples.

Results

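The 10 genes described here are Pnpla3 and 9 genes of fatty acid synthesis, Fasn, Scd1, Acly, Acaca, Srebf1, Elovl6, Thrsp, Me1 and Mlxipl, among the 56941 genes of a count table of mouse aortic valve leaflets. They were chosen by symbol with earlier results on the same counts in view, so their own differences between groups are given as a description. Where they are counted at a p threshold below, the counts stand beside all genes and are not read as a test of them. All 10 passed the filter of a mean count of at least 10 per library, which left 19145 genes for testing. The 14 libraries were bulk RNA-seq of leaflets from male C57BL/6J wild type mice, aged 8 weeks at the start, and every mouse ate the same Western diet. The groups were Ctrl (4 untreated mice), LY (2 mice given LY272015), AngII (4 mice infused with angiotensin II at 1000 ng/kg/min for 28 days) and AngII+LY (4 mice given both). LY272015 blocks the serotonin receptor HTR2B and was injected intraperitoneally at 3 mg/kg, on a schedule that the label fields give differently (alternate days in one field, a fixed number of days each week in another). Pumps came out of the angiotensin-infused mice 48 h before tissue was taken, so those libraries show leaflets after the infusion had stopped, and the LY mice had no pump. In 4 dosed mice the drug code in the treatment field ends in a higher digit than LY272015, and these mice were grouped by title.

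De novo lipogenesis turns citrate into fatty acids in the cytosol: Acly releases acetyl-CoA, Acaca makes malonyl-CoA from it, and Fasn builds palmitate, with NADPH from Me1 and other enzymes. Elovl6 lengthens palmitate and Scd1 adds the double bond that gives monounsaturated fatty acids. Srebf1 encodes a membrane-bound transcription factor released by proteolysis, Mlxipl encodes the carbohydrate-responsive factor ChREBP, and Thrsp and Pnpla3 are genes that follow feeding in liver and fat. Pnpla3 encodes a patatin-like protein of lipid droplets, known mostly from hepatocytes and adipocytes rather than from valves.

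Library totals ran from 20990655 counts (AngII 4) to 73128220 (AngII 2), and transcripts of the mitochondrial genome were more abundant in the infused mice, at 9.83 to 25.5% of counts (AngII) and 10.1 to 20.2% (AngII+LY), than in LY (8.62 to 9.76%) and Ctrl (4.00 to 7.52%). Markers of interstitial and endothelial cells were present in every library, at 0.509 to 2.01% and 0.133 to 0.345% of counts. Those of cardiomyocytes were also present, at 0.867 to 4.49%. The library Ctrl 1 stood apart, with smooth muscle markers at 0.935% of its counts against at most 0.172% in any other library. Because the tissue was whole, fewer cells of a type and less RNA per cell cannot be told apart for any gene below.

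The promoters of Pnpla3, Fasn and Thrsp are shown because all 4 AngII mice lay below all 4 Ctrl mice for these genes, and those of Mlxipl because its AngII+LY mice all lay above Ctrl. RefSeq sequences on GRCm38.p6, from 250 bases before to 50 bases after the start, were found for 9 of the 10 genes (Scd1 has no entry in the table). Capitals mark the letters of 4 motifs searched on both strands: the sterol regulatory element TCACNCCAC, the E-box CACGTG, the CCAAT box CCAAT and the GC box GGGCGG. Each runs 5′ to 3′ on the strand of its gene.
Pnpla3, chr15:84167566-84167865, plus strand: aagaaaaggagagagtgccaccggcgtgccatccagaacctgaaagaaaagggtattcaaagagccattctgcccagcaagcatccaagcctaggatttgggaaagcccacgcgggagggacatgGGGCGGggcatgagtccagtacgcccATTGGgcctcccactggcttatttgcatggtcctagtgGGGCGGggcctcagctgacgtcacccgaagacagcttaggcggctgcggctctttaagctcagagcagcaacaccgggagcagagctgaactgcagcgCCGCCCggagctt
Fasn, chr11:120824498-120824797, minus strand: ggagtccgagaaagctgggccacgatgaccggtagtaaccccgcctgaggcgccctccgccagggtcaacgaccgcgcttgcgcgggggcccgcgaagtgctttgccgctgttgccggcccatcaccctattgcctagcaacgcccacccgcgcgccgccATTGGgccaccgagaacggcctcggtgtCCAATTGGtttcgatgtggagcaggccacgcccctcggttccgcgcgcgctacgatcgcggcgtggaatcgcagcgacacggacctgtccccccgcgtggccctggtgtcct
Thrsp, chr7:97417501-97417800, minus strand: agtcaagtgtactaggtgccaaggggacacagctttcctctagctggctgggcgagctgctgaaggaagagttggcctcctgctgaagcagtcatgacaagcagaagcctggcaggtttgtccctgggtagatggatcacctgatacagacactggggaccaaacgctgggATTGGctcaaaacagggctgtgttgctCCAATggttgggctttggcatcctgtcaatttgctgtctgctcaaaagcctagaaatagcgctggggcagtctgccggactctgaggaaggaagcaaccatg
Mlxipl, upstream start, chr5:135089640-135089939, plus strand: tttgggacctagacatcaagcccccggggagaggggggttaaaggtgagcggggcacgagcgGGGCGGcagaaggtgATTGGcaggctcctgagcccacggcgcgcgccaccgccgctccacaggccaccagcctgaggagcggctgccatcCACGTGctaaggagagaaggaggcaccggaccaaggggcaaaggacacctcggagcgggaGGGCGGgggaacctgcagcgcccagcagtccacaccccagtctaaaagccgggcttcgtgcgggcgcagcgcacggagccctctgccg
Mlxipl, downstream start, chr5:135106641-135106940, plus strand: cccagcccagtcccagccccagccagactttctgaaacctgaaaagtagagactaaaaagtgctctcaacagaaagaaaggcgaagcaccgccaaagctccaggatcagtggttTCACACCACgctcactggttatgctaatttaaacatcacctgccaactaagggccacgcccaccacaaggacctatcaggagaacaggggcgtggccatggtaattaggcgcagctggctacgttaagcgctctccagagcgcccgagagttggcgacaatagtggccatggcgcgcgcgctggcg

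Read as letters only, the Pnpla3 window held 3 GC boxes and 1 CCAAT box, the Fasn window 3 CCAAT boxes, of which 2 on opposite strands overlap, and the Thrsp window 2 CCAAT boxes. Across the 13 windows of the 9 genes, CCAAT was present in 8 and GGGCGG in 6, where 37.4% and 35.7% of all 32851 promoter windows of the table hold them. The sterol regulatory element was found only in the downstream Mlxipl window and the E-box only in the upstream one, against 1.24% and 7.15% of all windows. In GRCm39 coordinates of GENCODE vM39, the Fasn, Acly, Acaca and Srebf1 genes all lie on chromosome 11, and Pnpla3 spans positions 84051943 to 84073723 of chromosome 15.

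Per kilobase of exon, which allows levels to be compared between genes, Scd1 stood highest in Ctrl valves at 2566 ± 1700.2 normalized counts (SD, n = 4) and Pnpla3 lowest at 20.99 ± 14.5. Between them came Thrsp at 1992 ± 828, Me1 at 1244 ± 56.8, Srebf1 at 814 ± 73.4, Fasn at 508 ± 281, Acly at 417 ± 75.4, Elovl6 at 63.7 ± 20.3, Acaca at 54.6 ± 26.2 and Mlxipl at 30.0 ± 7.87. Neighbours in this order had overlapping ranges over the 4 mice, except Me1 above Srebf1 and Acly above Elovl6, whose ranges were apart. In AngII valves Pnpla3 was again lowest, at 2.99 ± 0.563 per kilobase, and its range no longer met that of the next gene up, Acaca at 34.8 ± 2.78.

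**Figure D1:**
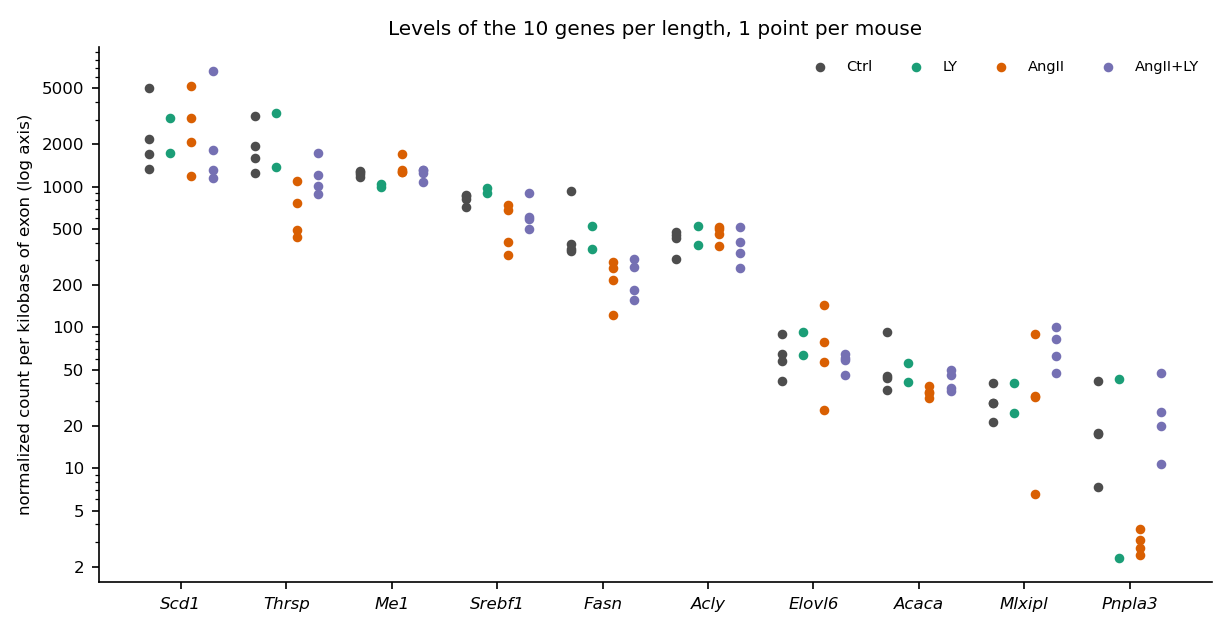
Normalized counts per kilobase of exon (log axis) for the 10 genes, ordered by their mean in Ctrl, with 1 point per mouse and 1 colour per group. Scd1 stands at the top and Pnpla3 at the bottom, where the AngII mice lie between 2.43 and 3.73.

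Pnpla3 had the largest fold between group means of the 10 genes. Its normalized counts were 221, 39.2, 94.0 and 92.6 in the Ctrl mice and 16.5, 12.9, 14.4 and 19.9 in the AngII mice. In AngII+LY they were 106, 56.8, 134 and 255. The 4 AngII mice lay below all Ctrl and all AngII+LY mice, and the latter groups overlapped each other. The log2 fold change was -2.82 (SE 0.82) for AngII against Ctrl, 3.12 (SE 0.83) for AngII+LY against AngII and 0.30 (SE 0.75) for AngII+LY against Ctrl, and the first and second of these share the AngII mice. Those values rest on low counts, since Pnpla3 had raw counts of only 16, 19, 12 and 6 in the AngII libraries. The gene has 5323 bases of exon. In the LY mice Pnpla3 was at 231 in one and 12.2 in the other, so that antagonist-dosed, uninfused valves reached both the top of the Ctrl range and the AngII level. With each mouse left out in turn, the log2 fold change for AngII against Ctrl ran from -3.10 to -2.25 and that for AngII+LY against AngII from 2.64 to 3.41.

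**Figure D2:**
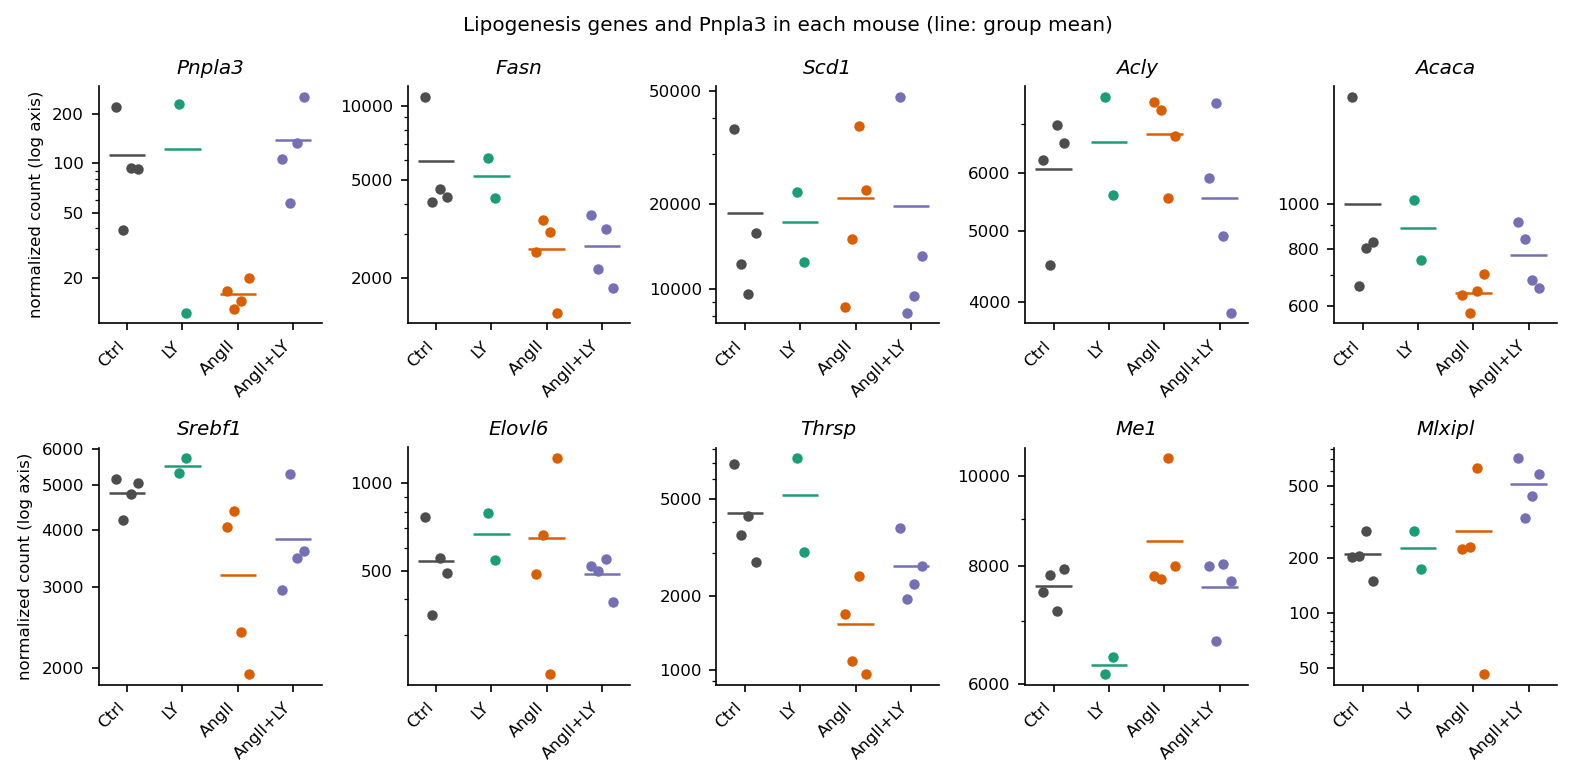
Normalized counts of each of the 10 genes (log axes, own scale per gene), with 1 point per mouse in library order and a line at the group mean, for Ctrl, LY, AngII and AngII+LY. Pnpla3 in the AngII mice lies between 12.9 and 19.9, below the 39.2 of the lowest Ctrl mouse and the 56.8 of the lowest AngII+LY mouse.

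Among the enzymes that build the chain, Fasn was lower in both infused groups. Its normalized counts were 10868, 4073, 4599 and 4255 in Ctrl, 2554, 3444, 3082 and 1446 in AngII, and 3602, 2163, 3152 and 1828 in AngII+LY. Neither infused group reached the lowest Ctrl mouse. The log2 fold change was -1.17 (SE 0.36) for AngII against Ctrl and -1.15 (SE 0.36) for AngII+LY against Ctrl, while AngII+LY and AngII differed by 0.03 (SE 0.35). Of the AngII+LY mice, 3 lay inside the AngII range of Fasn and AngII+LY 1 just above it. The Fasn difference from Ctrl changed in size with the library Ctrl 1 and with a correction for base composition. For AngII against Ctrl it was -0.71 without Ctrl 1, -0.51 without Ctrl 1 and AngII 4 together and -0.57 with the GC correction, and for AngII+LY against Ctrl it was -0.68 without Ctrl 1 and -0.83 with the GC correction.

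Acaca, the carboxylase step before Fasn, was at 1719.6 in Ctrl 1 and at 665, 805 and 826 in the other Ctrl mice, against 633, 580.3, 645 and 705 in AngII. The AngII mice overlapped Ctrl only at the low end, and the log2 fold change of -0.65 (SE 0.28) became -0.26 without Ctrl 1. In AngII+LY Acaca was at 917, 842, 682 and 655, a log2 difference of 0.27 (SE 0.28) from AngII. Acly, which feeds acetyl-CoA to both enzymes, was at 6081 ± 1098 in Ctrl, 6776 ± 875 in AngII and 5545 ± 1536 in AngII+LY (normalized counts, SD, n = 4), with overlapping ranges throughout. Me1, a source of NADPH, had the lowest coefficient of variation of the 10 genes over the 14 mice, 13.2%. It measured 7617 ± 348 in Ctrl and 7612 ± 647 in AngII+LY, and in AngII 8508 ± 1289.9, where 1 mouse at 10436 stood above the other 3 at 7764 to 8014. Of the exon bases of Me1, 35% also belong to Rwdd2a on the opposite strand, whose mean count was 262 against 7592 for Me1, and the sources used here do not state whether strand entered the counting.

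The enzymes that modify palmitate varied between mice more than between groups. Scd1 was at 36478, 12212, 9568 and 15708 in Ctrl, 8614, 14969, 37481 and 22302 in AngII and 47547, 8258, 9414 and 13036 in AngII+LY. Each of these groups held 1 mouse at or above 36478, and the log2 fold change for AngII against Ctrl, 0.17 (SE 0.60), ran from -0.27 without AngII 3 to 0.74 without Ctrl 1. Elovl6 was at 486, 666, 219.9 and 1221 in AngII, a range that enclosed Ctrl (352 to 766) and AngII+LY (389 to 550.0).

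Thrsp, which encodes the lipogenesis-associated protein Spot 14, was lower in all 4 AngII mice than in any Ctrl mouse, as Fasn and Pnpla3 were. Its normalized counts were 6948, 3541, 4257 and 2764 in Ctrl and 1690.3, 1085, 2423 and 963 in AngII, with no overlap. In AngII+LY they were 3806, 1956, 2236 and 2651, between the other groups and overlapping both. The log2 fold change was -1.50 (SE 0.38) for AngII against Ctrl, 0.79 (SE 0.37) for AngII+LY against AngII and -0.72 (SE 0.37) for AngII+LY against Ctrl. It was -1.11 with the GC correction and -1.02 without Ctrl 1 and AngII 4, both for AngII against Ctrl.

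The genes of the transcription factors both had their widest spread in AngII. Srebf1 was at 5150.2, 4195, 4787 and 5071 in Ctrl, and in AngII at 4049.5 and 4395 in 2 mice and at 2394 and 1939 in the others, AngII 3 and AngII 4, which also had the highest mitochondrial shares (24.7% and 25.5%). Its log2 fold change of -0.59 (SE 0.25) was -0.02 after the GC correction. Srebf1 has the highest GC content of the 10 genes at 58.6%, with Fasn next at 57.7%, and Elovl6 the lowest at 44.2%. Mlxipl was at 203, 205, 283 and 149 in Ctrl and at 708, 331, 439 and 579 in AngII+LY, with no overlap and a log2 fold change of 1.29 (SE 0.55). The AngII mice, at 225, 230.2, 628 and 46.3, enclosed the Ctrl range and overlapped that of AngII+LY. The AngII 4 value came from a raw count of 14 in the shallowest library.

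Read against all genes, edgeR's quasi-likelihood test called 0 of 19145 genes (0%) in each of the 4 comparisons at the thresholds used (Benjamini-Hochberg adjusted p under 0.05, log2 fold change beyond 0.5 in either direction), and so none of the 10. The smallest edgeR adjusted p of any gene was 0.0568, in AngII+LY against AngII. For AngII against Ctrl, 5 of the 10 genes had an unadjusted edgeR p under 0.05, all of them lower (Pnpla3, Fasn, Acaca, Srebf1 and Thrsp), where 25.2% of all genes did. In the lower direction alone, 11.7% of all genes passed, and 13.4% in the higher. With the GC correction 2 of the 10 passed, both lower, where 3.72% of all genes were lower. DESeq2, run as an alternative, called Pnpla3, Fasn and Thrsp lower, where it called 13.9% of all genes in either direction and 4.75% of all genes lower, and without Ctrl 1 and AngII 4 it called none of the 10 and 1.55% of all genes. The newer quasi-likelihood estimate of edgeR called Thrsp, where it called 2.9% of all genes. Groups did not overlap for 3 of the 10 genes, against 15% of all genes. Nothing is read from these counts, since the genes were proposed with this comparison known.

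For AngII+LY against AngII, 1 of the 10 genes, Pnpla3, had an unadjusted edgeR p under 0.05 and was higher, with 22.5% of all genes past that threshold (10.1% higher and 12.4% lower). DESeq2 called none of the 10 (10.9% of all genes), nor did the newer edgeR estimate (0.919%), and Pnpla3 was the 1 gene whose groups did not overlap (11.1% of all genes). For AngII+LY against Ctrl, Mlxipl was higher and Fasn lower at an unadjusted edgeR p under 0.05, with 11% of all genes past that threshold (4.89% higher and 6.14% lower). The same pair did not overlap between these groups (8.16% of all genes), and DESeq2 called none of the 10 (1.79%). Nothing is read from the counts in these comparisons either, since the genes were chosen with results of these data in view. The 10 genes had a median log2 fold change of -0.22 for AngII against Ctrl, 0.14 for AngII+LY against AngII and -0.14 for AngII+LY against Ctrl, beside -0.06, -0.02 and -0.02 over all genes. The first of these medians was 0.02 with the GC correction, which moved the median of all genes to 0.12.

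**Figure D3:**
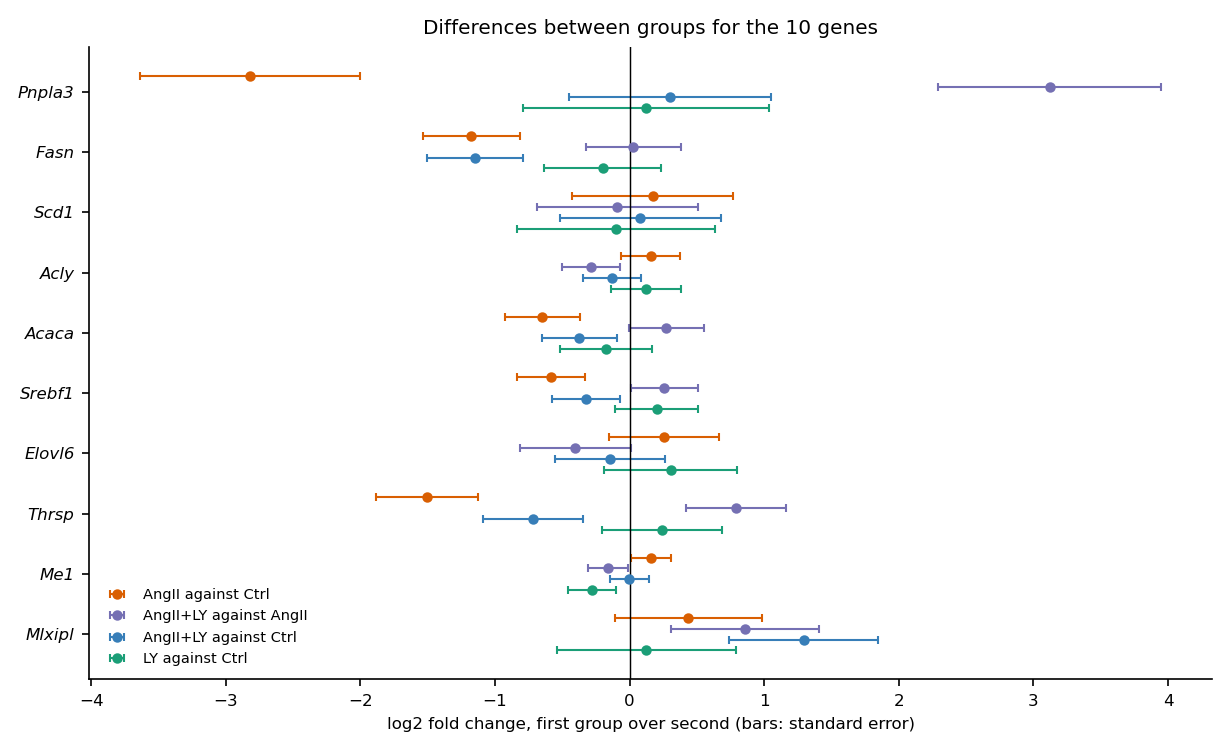
Log2 fold change of each of the 10 genes in the 4 comparisons, with bars for the standard error from the edgeR fit. Pnpla3 lies at -2.82 for AngII against Ctrl and at 3.12 for AngII+LY against AngII, while Fasn lies at -1.17 and 0.03.

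The antagonist alone could be read in only 2 mice. For LY against Ctrl none of the 10 genes had an unadjusted edgeR p under 0.05, where 1.39% of all genes did, and DESeq2 called none of them, where it called 0.104%. Srebf1 was at 5307 and 5727, above the highest Ctrl mouse, and Me1 at 6141 and 6408, below the lowest. With 2 mice against 4, 12% of all genes did not overlap between these groups. For 8 of the 10 genes the first LY mouse was the higher one, Srebf1 and Me1 being the exceptions. Without the first LY mouse the log2 fold change of Pnpla3 was -3.18, and without the second it was 1.05, so its value of 0.12 (SE 0.91) has no settled direction.

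The 10 genes did not vary as a block across the 14 libraries. Over their 45 pairs, Pearson's r of log2 normalized counts had a median of 0.14, ran from -0.72 for Srebf1 with Me1 to 0.80 for Fasn with Thrsp, and exceeded 0.5 in 6 pairs. Those 6 pairs lay among Fasn, Thrsp, Acaca, Pnpla3 and Srebf1. On deviations from group means 11 pairs exceeded 0.5, 4 of them among the 6, while Fasn with Srebf1 was at 0.24, and the median over all pairs was 0.22. Pnpla3 went most closely with Thrsp (r = 0.67, and 0.58 on deviations from group means) and least with Me1 (r = -0.28). These coefficients describe 14 libraries of unequal depth and mitochondrial share. The mice carried part of this spread, as Ctrl 1 held the highest Ctrl value for 7 of the 10 genes and Ctrl 2 the lowest for 6. Outside the list, the genes most like Pnpla3 over the 14 libraries were Gm5555 (r = 0.84), ENSMUSG00000098146 (0.83), B930059L03Rik (0.82), 2510002D24Rik (0.82) and Trim30c (0.82), all among 19145 genes ranked. Those most like the mean of the 10 genes were Lctl (r = 0.91), Gm18194 (0.81), Fam169b (0.80), Gm17586 (0.77) and Mrap (0.77), an accessory protein of the receptor for adrenocorticotropic hormone. On deviations from group means, r was 0.56 to 0.68 for the genes most like Pnpla3. For those most like the mean it was 0.72 to 0.90. Lctl, Fam169b, Trim30c and ENSMUSG00000098146 had mean counts of only 16.8, 19.6, 17.5 and 11.9, near the filter at 10.

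The rest of fatty acid synthesis showed no common direction. Of 27 further genes of this process, 14 lay above and 13 below zero for AngII against Ctrl, with a median log2 fold change of 0.01. At an unadjusted edgeR p under 0.05, 5 were higher and 6 lower, where 13.4% of all genes were higher and 11.7% lower. The elongase Elovl7 was higher in AngII (394 to 1300.4) than in Ctrl (173 to 202), a log2 fold change of 1.97 (SE 0.46), and Mecr, a reductase of mitochondrial fatty acid synthesis, was at -1.10 (SE 0.27). DESeq2 called both. Scd3, Elovl3 and Scd4, relatives of Scd1 and Elovl6, had wide errors, at 2.64 (SE 1.76), -2.54 (SE 1.30) and -1.60 (SE 0.97). Of 22 regulators of lipogenesis, 15 lay below zero (median -0.37), as did 52.7% of all genes, with 8 lower and 4 higher at an unadjusted p under 0.05 against the shares of all genes just given. Cebpa, an adipogenic factor, was at -1.30 (SE 0.36), and Mbtps2, the protease that makes the last cut in SREBP release, at 1.32 (SE 0.36).

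Genes of fat storage and breakdown lay mostly on the same side of zero as Pnpla3. Of 16 tested genes of lipid droplets and lipolysis, 14 lay below zero for AngII against Ctrl (median -0.80), 10 of them at an unadjusted edgeR p under 0.05 (11.7% of all genes were lower at that threshold and 52.7% below zero), and 13 lay above zero for AngII+LY against AngII (median 0.63). Beside these medians stand -0.06 and -0.02 over all genes, and these comparisons share the AngII mice. The gene lists and marker sets in this and the neighbouring paragraphs were not examined with the GC correction. Over all genes, that correction left 3.72% lower at an unadjusted edgeR p under 0.05 for AngII against Ctrl. It moved the median of all genes in that comparison from -0.06 to 0.12. The droplet proteins Cidec and Plin1 were at -1.82 (SE 0.52) and -1.78 (SE 0.71) for AngII against Ctrl, but at -0.14 (SE 0.50) and -0.21 (SE 0.70) for AngII+LY against AngII. Cidea and G0s2, an inhibitor of lipolysis, were at -1.56 (SE 0.44) and -1.24 (SE 0.36), and at 1.23 (SE 0.44) and 0.82 (SE 0.36) for AngII+LY against AngII. Dgat2, which makes triglyceride, followed the latter pair at -1.23 (SE 0.55) and 1.35 (SE 0.55), and 7 of 11 genes of triglyceride synthesis lay below zero for AngII against Ctrl. Among the other patatin-like genes, Pnpla2, the main triglyceride lipase, was at -0.83 (SE 0.32) and 0.70 (SE 0.32), while Pnpla8 went the other way at 1.29 (SE 0.32) and -1.07 (SE 0.32).

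Cholesterol synthesis, whose genes answer to the related factor SREBP-2, lay mostly on the opposite side of zero from Fasn. Of 22 tested genes, 16 lay above zero for AngII against Ctrl (median 0.41), with 7 higher and 1 lower at an unadjusted edgeR p under 0.05, beside 13.4% and 11.7% of all genes. Idi1, an isomerase of the mevalonate pathway, was at 362 to 1724 in AngII against 137 to 250.4 in Ctrl, a log2 fold change of 2.01 (SE 0.47), and the epoxidase Sqle was at 1.94 (SE 0.58). Of 8 genes of fatty acid uptake, 6 lay below zero for AngII against Ctrl and all 8 above zero for AngII+LY against AngII. The scavenger receptor Cd36 was the largest at 1.17 (SE 0.49) in the former. Of 21 genes of fatty acid oxidation, 16 lay below zero for AngII against Ctrl and 19 above zero for AngII+LY against AngII (median 0.71), among them the scarce Cpt1b at 1.76 (SE 1.18), Acads at 1.18 (SE 0.43) and Etfb at 1.17 (SE 0.26). Beside this, markers of cardiomyocytes, which oxidise fatty acids, were all 12 above zero in the latter comparison (median 1.33), and their part in the oxidation values was not tested.

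**Figure D4:**
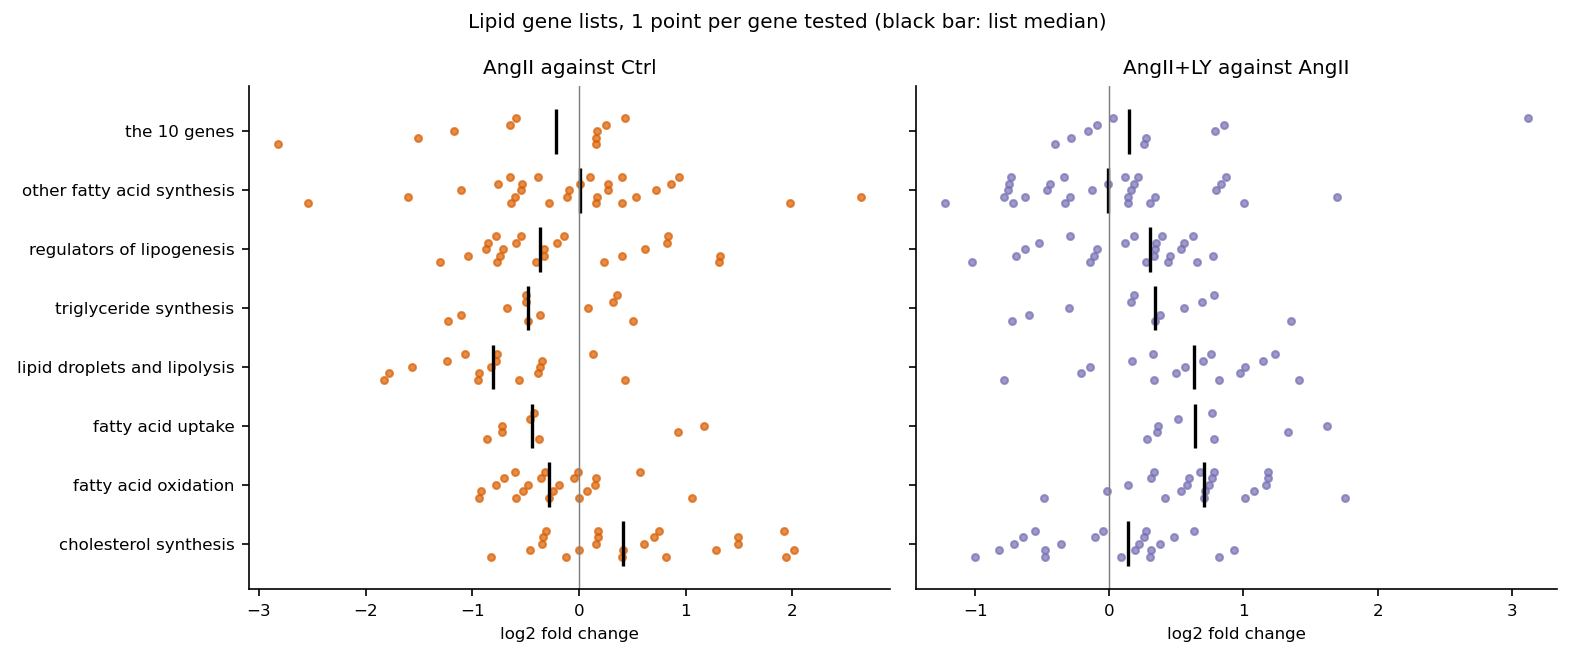
Log2 fold change of every tested gene of 8 lists, the 10 genes at the top, for AngII against Ctrl (left) and AngII+LY against AngII (right), with a black bar at each list's median. The lipid droplet list lies mostly below zero on the left (median -0.80) and above zero on the right (median 0.63), and cholesterol synthesis lies mostly above zero on the left (median 0.41).

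Fat cell markers, of which Plin1, Cidec and Lipe are also in the droplet list, lay lower in AngII. All 13 adipocyte markers lay below zero for AngII against Ctrl (median log2 fold change -1.28), 7 of them at an unadjusted edgeR p under 0.05 (11.7% of all genes were lower at that threshold), and their summed share of counts was 0.0525 to 0.0966% in AngII against 0.102 to 0.147% in Ctrl. In AngII+LY the sum was 0.0955 to 0.133%, and it lay above the AngII range in all but 1 mouse. Fabp4 alone made up 74.9 to 87.2% of that sum, and without it the other 12 markers took 0.0238 to 0.0520% of counts in Ctrl, 0.00811 to 0.0314% after AngII alone and 0.0122 to 0.0335% after both agents. Adipoq, Lep and Retn, hormones of fat cells, were at -1.49 (SE 0.69), -1.60 (SE 1.65) and -1.66 (SE 0.67), and at most 1 of the 13 markers was at 0 in any library. For AngII+LY against AngII, 10 of the 13 adipocyte markers lay above zero (median 0.32). At an unadjusted edgeR p under 0.05, 3 were higher, where 10.1% of all genes were. Adipoq was at 0.09 (SE 0.68) in that comparison, and Pnpla3 at 3.12. Ucp1, the uncoupling protein of brown fat, was at 2417 to 5206 in Ctrl, at 205 to 1037 after AngII alone and at 305 to 787 after both agents, with both infused groups below Ctrl. The summed brown fat markers did not share that order, at 0.115 to 0.204% of counts in Ctrl, 0.0657 to 0.144% for the AngII mice and 0.197 to 0.258% for AngII+LY, where Cox8b and Kcnk3 were at 1.25 (SE 0.29) and 1.48 (SE 0.50) on the log2 scale against AngII. Cox7a1 and Cox8b made up most of that sum, with AngII+LY means of 63656 and 62231 normalized counts. Ucp1, Cidea and Elovl3 had AngII+LY means of only 482, 1787 and 7.72, so the sum says little about them. Their means after AngII alone were 520, 760 and 18.5, so of these genes only Cidea was higher with both agents. Of the 9 tested brown fat markers, 5 lay above zero and 4 below for AngII+LY against AngII. The part of cardiomyocytes in the summed brown fat markers was not tested, and the sum is not read as an amount of brown fat. Cardiomyocyte markers took 0.867 to 1.78% of counts in AngII and 2.15 to 4.49% in AngII+LY, with all 12 above zero for AngII+LY against AngII. Interstitial cell markers moved the other way, from 1.22 to 1.87% in AngII to 0.509 to 0.914% in AngII+LY, with 9 of 10 below zero (median -0.88), and they took 0.980 to 2.01% in Ctrl. Macrophage markers lay below zero in 6 of 8 for AngII against Ctrl (0.0436 to 0.0683% of counts against 0.0499 to 0.203%). Of 6 hepatocyte markers, Alb was at 31.5 to 74.1 normalized counts, Apoa1 and Ttr were below 43, 2 failed the count filter, and only Cyp2e1, which fat also expresses, was abundant, at a lowest value of 567. The part of these cell types in the values of the 10 genes and of the lipid gene lists was not tested.

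**Figure D5:**
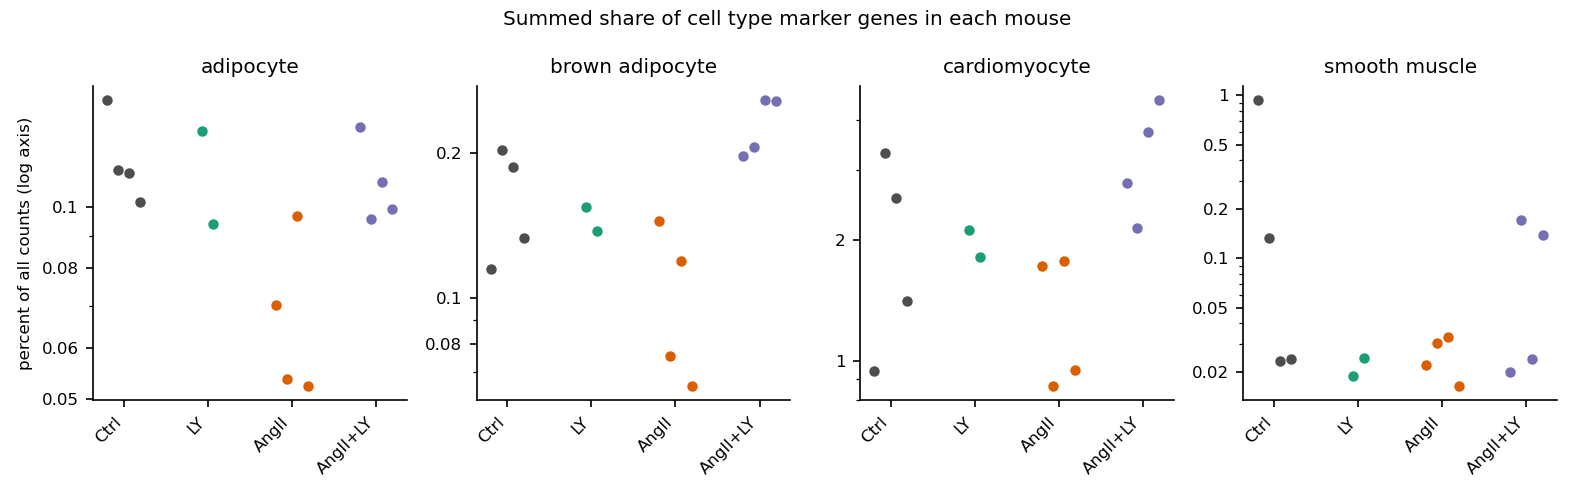
Summed counts of 4 cell type marker lists as a percent of all counts (log axes), with 1 point per mouse in library order. Adipocyte markers lie at 0.0525 to 0.0966% in AngII and at 0.102 to 0.147% in Ctrl, and smooth muscle markers reach 0.935% in Ctrl 1.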

How the data were processed

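Leaflet RNA from 14 mice was sequenced in bulk, 1 library per mouse. Per the labels and the study's methods, the authors checked reads with FastQC 0.12.1, trimmed them, aligned them to GRCm39 with HISAT2, counted reads per gene with featureCounts and tested with DESeq2. Other versions and the annotation are not given in the sources used here. The deposited table, although called normalized, holds whole-number counts with unequal totals (20990655 to 73128220), taken as raw; of values from 1 to 20, 47957 were even and 30917 odd. Symbols came from GENCODE vM39, and 618 genes (0.0361% of counts) had no match.

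The 19145 genes averaging 10 or more counts entered 1 fit of the 4 groups in edgeR 4.0.16 (R 4.3.3, TMM scaling, quasi-likelihood F-test, Benjamini-Hochberg adjustment). A call required an adjusted p under 0.05 together with a log2 fold change beyond 0.5 in either direction. Normalized counts are TMM-scaled to the mean library size, and likeness was computed on log2 of them plus 1. Comparisons share mice. Alternatives were DESeq2 1.42.0, RLE scaling, no filter, only the groups compared, a replicate block, a loess GC correction (span 0.3), each mouse left out, and, chosen after seeing the data, Ctrl 1 and AngII 4 left out and the newer edgeR estimate. Scripts were tested on simulated data. P-values set a difference between groups against the spread estimated between these mice.

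The 10 genes, the gene lists and the tests were chosen with earlier results of these data known. Genes named from a list were the 4 with the largest absolute log2 fold change in a comparison, plus the leading markers of each cell type.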

Additional observations from a re-analysis of the deposited data

Results flagged for a closer look

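Within groups of 4 mice, the gap between an extreme mouse and its nearest neighbour was set against the whole range for the 10 genes and 8 marker lists, 54 groups in all, and a ratio above Dixon's critical value for 4 samples was taken as a mouse far from the others. For independent values with a normal spread, chance alone marks about 1 in 20 groups. The ratios were taken on values without a log, and groups share mice, so that rate is only a rough guide. Of the 54 groups, 5 were marked, each by its highest mouse. Fasn was at 10868 in Ctrl 1, with the next Ctrl mouse at 4599. Acaca was at 1719.6 in the same mouse, with the next at 826, and smooth muscle markers took 0.935% of its counts against 0.133% in the next Ctrl mouse. Scd1 was at 47547 in AngII+LY 1 and at most 13036 in the other AngII+LY mice. Me1 was at 10436 in AngII 3 and at most 8014 in the other AngII mice. None of the 10 genes had all antagonist-dosed mice on one side with AngII and all on the opposite side without it.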

How the results depend on the processing

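Counts of genes called depended on the method far more than the 10 genes' own fold changes did. Against 0 calls in each comparison, DESeq2 called 2663 genes (AngII against Ctrl), 2082 (AngII+LY against AngII), 343 (AngII+LY with Ctrl as reference) and 20 (LY alone). In that order, the newer edgeR estimate called 555, 176, 0 and 0, and edgeR without the count filter 123, 1, 13 and 0. The earlier quasi-likelihood estimate, planned as an alternative, is the default of this edgeR version and so equals the values reported. DESeq2 without Ctrl 1 and AngII 4 called 297 genes for AngII against Ctrl, and edgeR without them found 2479 at an unadjusted p under 0.05 in place of 4815. With 1 mouse left out, calls ran from 0 to 1725 for AngII against Ctrl (the highest without AngII 1, then 805 without Ctrl 4 and 382 without AngII 2), from 0 to 844 for AngII+LY against AngII (the highest without AngII 1), from 0 to 3 with AngII+LY set against Ctrl, and stayed at 0 with LY alone. Genes at an unadjusted p under 0.05 then ran from 3181 to 5667, 3194 to 4869, 1443 to 2561 and 111 to 379.

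The GC correction left 2970 genes at an unadjusted p under 0.05 for AngII against Ctrl, 2261 higher and 709 lower, in place of 2575 higher and 2240 lower. With a replicate block added to it, 2506 and 2565 were left in the first and second comparison, and 1 gene was called for AngII+LY against Ctrl. The replicate block alone changed no count of calls (0 throughout) and left 4431 genes at an unadjusted p under 0.05 for AngII against Ctrl. The labels do not say what a shared replicate number marks. Deviations of same-numbered mice from their group means correlated between -0.13 and 0.09 over all tested genes. Such correlations would not show a shared effect that is small or limited to some genes. For LY against Ctrl, 266 genes at an unadjusted p under 0.05 became 427 with DESeq2, 633 without the filter, 679 with only these groups and 485 with the newer estimate.

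The median over the 10 genes changed sign in 7 of 63 alternative values. With the GC correction it went from -0.22 to 0.02 (AngII against Ctrl) and from -0.14 to 0.05 (AngII+LY with Ctrl as reference, 0.07 with the block as well), and with the replicate block from 0.12 to -0.05 (LY alone). The other 3 changes came with Ctrl 1, Ctrl 2 or LY 1 left out. Of 630 alternative values for single genes and comparisons, 616 moved by less than the gene's own spread and 14 by more. That spread was the pooled SD of log2 values within groups, from 0.14 for Me1 to 1.19 for Pnpla3. A shift below it can still be sizeable, as for Fasn (spread 0.55) from -1.17 to -0.71 without Ctrl 1 for AngII against Ctrl. Of the 630 values, 55 changed sign, none of them with an absolute log2 fold change above 0.5 to begin with. With 1 mouse left out the median ran from -0.39 to -0.05, 0.02 to 0.23, -0.28 to 0.00 and -0.34 to 0.29 in the 4 comparisons. The AngII values of Pnpla3 rest on raw counts of 6 to 19 per library and LY on 2 mice, so differences of moderate size were not detectable there.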
